A study of Oryzias melastigma with 12 samples.

Results

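The response of fish larvae to the lowest concentration of hexabromocyclododecane (HBCD) was followed by setting the 3 arrays of larvae kept in 0.2 nM HBCD against the 3 arrays of the solvent control. Membership came from the sample labels, which put 6 of the study's 12 arrays in this comparison. The other 6 arrays, of larvae kept in 2 or 20 nM, entered the fits only to share the estimate of the spread. The species, Oryzias melastigma or marine medaka, lives in coastal water and is kept in laboratories as a test fish, and the labels give no strain. Larvae entered the test no more than 24 hours after hatching and stayed in the water for 7 days in dishes of 100, after which 30 whole larvae were pooled per RNA sample. Larvae of both groups were in seawater with dimethyl sulfoxide (DMSO) as the solvent, which the labels give at a dilution of 1 in 30000, and the controls had no HBCD. Each array carried the RNA of 1 pool, so the spread within a group covers pools and arrays together. The labels give 3 replicates of dishes per treatment but do not tie a pool to a dish, so p-values measure the spread between these samples, which may be partly technical.

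HBCD is a brominated flame retardant once added to polystyrene foam, and it is known to persist in water and sediment and to build up in fish. In rats it is known to raise liver enzymes that break down foreign compounds, and in rats and fish it is known to disturb the thyroid hormone axis, which steers larval growth and the change to juvenile form. Whole larvae mix all tissues, so fewer cells of a type and less RNA per cell cannot be told apart in these values.

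The array held 26429 probes of a custom design, of which 22407 were printed once and 4014 were printed 5 times. The files name them by design number, and 0 of them could be paired with any of the 28599 genes of the medaka gene table used here, so probes are reported in place of genes and tissue markers could not be looked up. Between 11551 and 12819 probes (43.7% to 48.5%) were well above background on the 6 arrays. The tests covered the 11910 probes (45.1%) that had such signal throughout any of the 4 groups. Levels are log2 intensities relative to the 75th percentile of the probes detected on all 12 arrays, so 0 is a bright probe and the median tested probe lay at -2.76.

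The exposed arrays were not all scanned on the glass slide that held the controls. Per the file headers, 0.2 nM replicate 3 shared slide 1 with all 3 controls, while 0.2 nM replicates 1 and 2 were on slide 2 beside 2 arrays of larvae kept in 2 nM. The remaining array at 2 nM and all arrays at 20 nM were on slide 3. Before scaling, the 75th percentile of the detected probes was 2506 and 2728 intensity units on 0.2 nM replicates 1 and 2, and 1789.5 on 0.2 nM replicate 3. It was 1824, 1812 and 1694 on the controls, and 2052 and 1737 on the 2 nM arrays that shared slide 2. The signal of these 2 exposed arrays was thus above that of the controls and of their own slide neighbours.

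Among these 6 arrays, distances were larger across slides than within them. The only pair on slide 2 was 0.2 nM replicates 1 and 2, so the slide cannot be told apart from other traits of these 2 arrays. The median absolute log2 difference over the tested probes was 0.12 to 0.14 between 0.2 nM replicate 3 and each control, and 0.09 to 0.12 between the controls themselves. Between 0.2 nM replicates 1 and 2 it was 0.10. It was 0.23 to 0.24 between either of these arrays and a control, and 0.22 between either of them and 0.2 nM replicate 3, although that array had the same treatment. Probes that differed at least 2-fold between 2 arrays made up 1.83% to 2.02% of tested probes for 0.2 nM replicate 3 against a control, 1.49% to 1.66% between controls, and 4.85% to 6.21% for the slide 2 arrays against a control. Between 0.2 nM replicates 1 and 2, on the same slide, this share was 3.14%, above that of each slide 1 pair. Against 0.2 nM replicate 3, of the same treatment, it was 3.80% for replicate 1 and 4.07% for replicate 2.

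**Figure D1:**
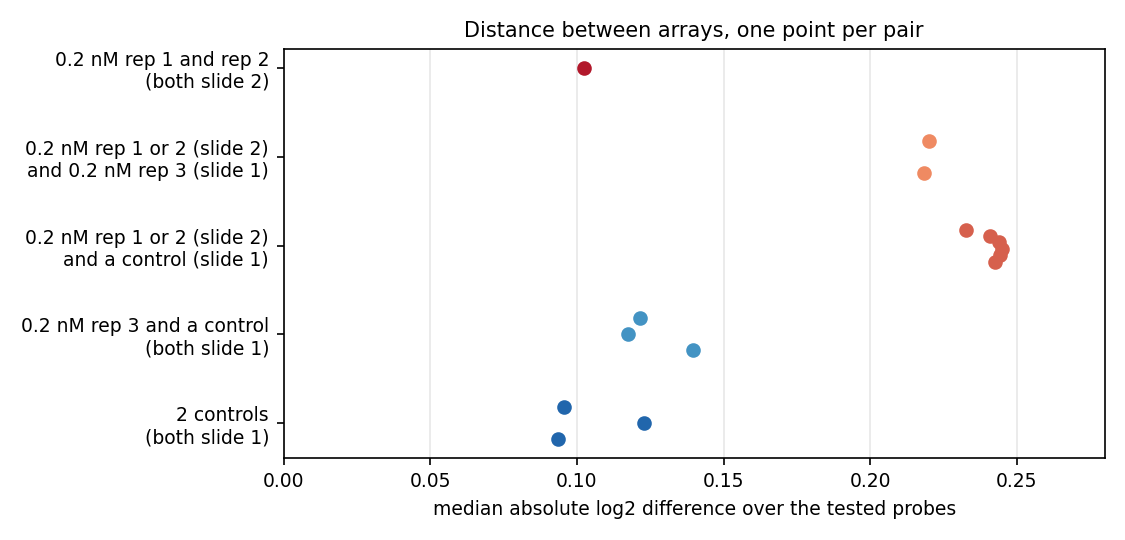
Each point is a pair among the 6 arrays, placed by the median absolute log2 difference over the tested probes and grouped by treatment and slide. Pairs within slide 1 lie between 0.09 and 0.14, the pair on slide 2 lies at 0.10, and pairs across slides lie between 0.22 and 0.24 whether or not the treatment differs.

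With all 3 exposed arrays set against all 3 controls, no probe passed the threshold (0 of 11910 probes, 0%, at a limma adjusted p under 0.05, with 1729 at an unadjusted p under 0.05 and a smallest adjusted p of 0.0602). The median absolute log2 difference was 0.17, and the 5th and 95th percentiles of the signed difference were -0.54 and 0.51. Differences of at least 2-fold were measured for 217 probes, 141 higher and 76 lower, of which 174 belonged to the dimmest quintile of probes and 0 to the brightest. The median SD between arrays was 0.15 at 0.2 nM and 0.09 in the controls (n = 3 each), and 0.07 over 0.2 nM replicates 1 and 2 alone. A median SD over 2 arrays is not on equal terms with a median SD over 3. Leaving out 0.2 nM replicate 3 gave 301 calls (183 higher, 118 lower). Every exposed array was then on slide 2 and every control on slide 1, so treatment and slide cannot be told apart in that count. With array weights the median log2 difference was 0.06, against 0.04 as reported and 0.07 for 0.2 nM replicates 1 and 2 alone. These weights raised the count to 3833 (2078 higher, 1755 lower). The weighted median lay nearer to that of the slide 2 arrays, for which treatment and slide changed together, and the part of the slide in these calls was not tested. Without control replicate 1 the 3 against 3 count was 5, all 5 higher, and with slide as a block it was 15, which is the comparison on slide 1 given below.

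All 3 exposed arrays lay above all 3 controls for 1955 probes (16.4% of those with 6 values) and below them for 1551 (13%). Scaling to the median of all probes turned that balance, to 1326 above and 1784 below. A clear gap was rare. The lowest exposed array exceeded the highest control by at least 0.5 on the log2 scale for 46 probes (0.387%), and the highest exposed array was at least 0.5 below the lowest control for 29 (0.244%). Gaps of at least 1, a doubling, were found for 14 probes above (0.118%) and 3 below (0.0252%), with limma adjusted p from 0.0602 to 0.445.

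The smallest p of all belonged to the dim probe CUST_16611_PI414333748, named after its values were seen, which was well above background on 1 of the 3 controls. Its levels were -4.33, -4.23 and -4.85 at 0.2 nM, against control levels of -6.17, -7.35 and -6.76 (log2 difference 2.29, SE 0.27, limma adjusted p = 0.0602).

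Among probes well above background on all 6 arrays with no overlap between the groups, the 2 with the smallest p in each direction differed by less than 2-fold, and none of these 4 passed. Probe CUST_18097_PI414333748 had levels of -1.79, -1.73 and -1.99 at 0.2 nM, against -2.44, -2.78 and -2.52 in controls. Every exposed array lay above every control, and the exposed array on the controls' own slide was the lowest of the 3. The mean was -1.84 ± 0.14 at 0.2 nM and -2.58 ± 0.18 in controls (log2, SD, n = 3 each), a 1.67-fold difference (log2 difference 0.74, SE 0.11, limma adjusted p = 0.0922). Within slide 1 the difference was 0.59 (SE 0.14, limma adjusted p = 0.442). At the higher concentrations, whose comparisons share these controls, its levels were -1.69, -1.92 and -1.82 at 2 nM and -1.76, -1.76 and -1.69 at 20 nM, so the 9 exposed arrays all lay above the controls. Of these 9, only 0.2 nM replicate 3 was on the controls' slide. For the rest, treatment and slide changed together and cannot be told apart.

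Probe CUST_15292_PI414333748 was far brighter, with levels of 4.38, 4.25 and 4.20 at 0.2 nM, against 3.82, 3.81 and 3.63 in controls. Again no exposed array overlapped the controls. The difference was 1.44-fold (log2 difference 0.53, SE 0.09, limma adjusted p = 0.0922) over all arrays and 0.45 (SE 0.12) on the log2 scale within slide 1. Its levels ran from 4.16 to 4.27 at 2 nM and from 4.06 to 4.15 at 20 nM. Neither of these probes lay beside a locally raised spot, as defined below, on any of the 6 arrays.

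Among the lower probes, CUST_5313_PI414333748, printed 5 times on each array, had levels of 3.37, 3.24 and 3.49 at 0.2 nM, against 3.74, 3.76 and 3.73 in controls. The controls spanned a narrow range, and the exposed array nearest to them was the one on their slide. The log2 difference was -0.37 (SE 0.08, limma adjusted p = 0.179) over all arrays and -0.25 (SE 0.09) within slide 1. Probe CUST_21763_PI414333748, also printed 5 times but dim, had -5.71, -5.61 and -5.08 at 0.2 nM, against -4.76, -4.76 and -4.86 in controls. Its log2 difference was -0.67 (SE 0.15, limma adjusted p = 0.209), -0.29 (SE 0.13) within slide 1 and -0.24 with normexp background correction. At 2 nM the first was at 3.45 to 3.56 and the second at -5.21 to -4.96, both still below every control. At 20 nM both probes were nearer the controls, at 3.62 to 3.65, still below each of them, and at -4.85 to -4.57. None of the arrays at 2 or 20 nM was on the controls' slide. These 4 probes passed with array weights or without 0.2 nM replicate 3 (limma adjusted p from 0.00348 to 0.0314) and under none of their 19 other alternatives. Without 0.2 nM replicate 3, treatment and slide changed together. With array weights, the difference of each of the 4 lay nearer to that of the slide 2 arrays than the reported one did.

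**Figure D2:**
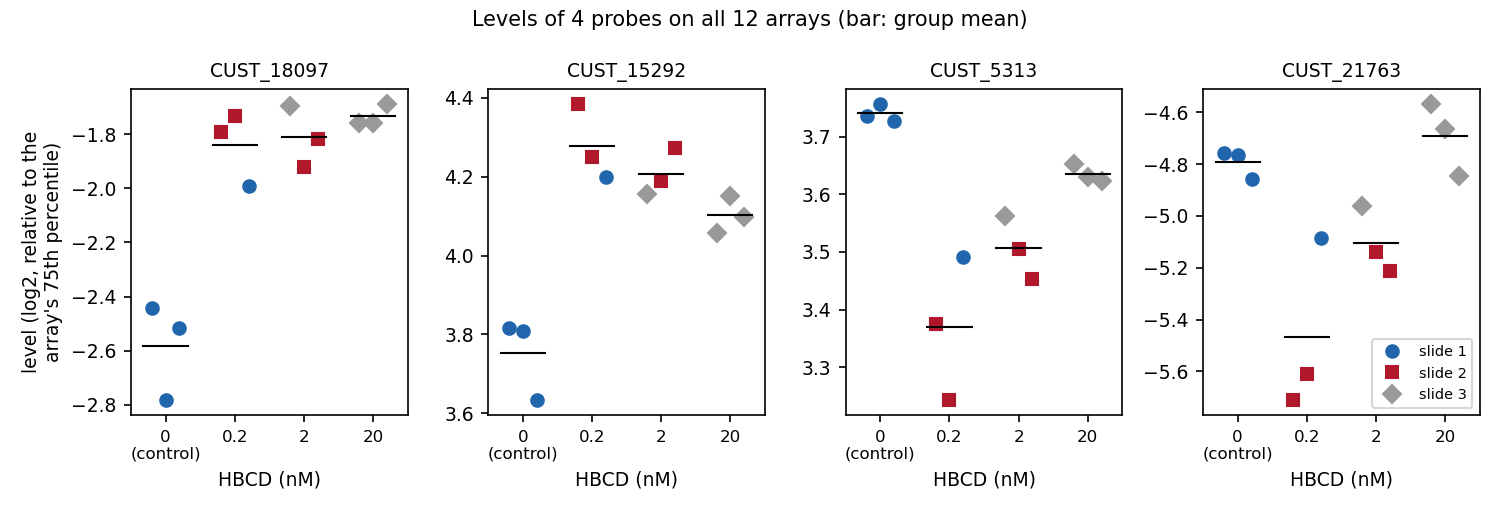
Levels (log2, relative to the 75th percentile) of the 4 probes with the smallest p, 2 per direction, among those with signal on all 6 arrays and no overlap, on each of the 12 arrays by HBCD concentration, with colour and shape for the slide, a bar for the group mean, and the common suffix of the probe names left out. In each panel the 3 arrays at 0.2 nM lie outside the range of the controls, and the slide 1 array at 0.2 nM is the nearest to the controls.

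Some transcripts crossed the detection limit between the groups. The counts were 37 probes (0.311% of those tested) well above background on all 3 exposed arrays and no control, and 7 (0.0588%) with the reverse pattern. These probes had to differ to be chosen, so their direction is a description. For a probe not well above background in a group the fold is a lower bound, taken against the higher of that probe's own signal and the lowest signal well above background on each array. The 37 were at least 1.59-fold higher at the median and the 7 at least 1.99-fold lower. Of the 37, 36 were printed once, and the spot of 13 of these (36.1%, against 25.3% of all tested probes printed once) lay beside a raised spot on an exposed array.

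The largest bound upward was that of CUST_15943_PI414333748, with -3.34, -6.29 and -4.05 at 0.2 nM, against -7.59, -8.27 and -8.37 in controls. The exposed arrays spread widely among themselves, and the difference was at least 3.80-fold (limma adjusted p = 0.302). Its only spot lay beside a raised spot on 0.2 nM replicates 1 and 3 and on control replicate 3. With such spots left out, its log2 difference was 1.65, which rested on 0.2 nM replicate 2 alone against control replicates 1 and 2. With normexp background correction its fitted log2 difference was 0.86. Other scalings gave 3.50 (75th percentile of all probes), 3.46 (median) and 3.58 (quantile normalization), against 3.52 as reported. The bound itself was computed with the main processing alone. The largest downward was that of CUST_11826_PI414333748, with -6.42, -6.98 and -7.95 at 0.2 nM, against -4.84, -3.73 and -5.36 in controls, at least 3.99-fold lower (limma adjusted p = 0.336), with a fitted log2 difference of -0.68 with normexp. Of the 17 probes with a gap of at least 1, only CUST_20390_PI414333748, named after its values were seen, was well above background on all 6 arrays. Its levels were -1.84, -1.43 and -2.24 at 0.2 nM, against -3.40, -3.56 and -3.25 in controls, and -3.58, -2.79 and 1.64 at 2 nM, with a limma adjusted p of 0.445. The 3 probes with such a gap downward, CUST_4161_PI414333748, CUST_11826_PI414333748 and CUST_24362_PI414333748, were well above background on no exposed array.

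On slide 1, where treatment changed and the slide did not, 15 of 11910 probes (0.126%) passed, 12 higher and 3 lower in 0.2 nM replicate 3 than in the controls. This contrast rests on a single exposed array, which is assumed to vary like the others. The median absolute log2 difference was 0.11 and the median SE 0.17, against 0.17 and 0.14 with all exposed arrays, and 503 probes had an unadjusted p under 0.05. Of the 15, 13 differed by at least 2-fold. For 10 of the 15, 0.2 nM replicates 1 and 2 also both lay beyond all 3 controls, on the same side. Among all tested probes with 6 values, the 3 exposed arrays lay beyond the controls on 1 side at 29.5%. The 15 were chosen by the difference of 0.2 nM replicate 3, so these shares are not on equal terms. Median scaling gave 12 higher and 1 lower, and normexp 20 higher and 1 lower. No call was made by limma (0 probes, with 1079 at an unadjusted p under 0.05) when the arrays at 2 and 20 nM were left out of the model, and 5 were made without control replicate 2 and 9 without control replicate 1.

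For the 12 higher probes, 0.2 nM replicate 3 lay above all other 11 arrays, by 1.03 to 2.54 over the control mean for the 11 that were measured in the controls and by at least 2.72 (log2) for CUST_17642_PI414333748, named after its values were seen and well above background on no control, while the mean of 0.2 nM replicates 1 and 2 lay between -0.09 and 0.90 from it. Probe CUST_12998_PI414333748 had a level of -2.53 on 0.2 nM replicate 3, against -5.17, -5.29 and -4.74 in controls, a 5.81-fold difference (log2 difference 2.54, SE 0.20, limma adjusted p = 0.0111), and 1.26 on the log2 scale with normexp background correction. The other exposed arrays had -4.84 and -4.94, inside the range of the controls. Probe CUST_14448_PI414333748 had -3.41 on 0.2 nM replicate 3, against control levels of -5.97, -5.84 and -5.72, and -5.04 and -4.84 on the other exposed arrays. Its log2 difference on slide 1 was 2.44 (SE 0.33, limma adjusted p = 0.0485), or 0.98 with normexp, and the call was lost in 9 of 15 alternatives. Here all 3 exposed arrays at 0.2 nM were above the controls, while the arrays at 2 and 20 nM spanned the controls' range, at -6.74 to -5.65.

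One of the lower calls was alike on all exposed arrays. Probe CUST_22915_PI414333748 had -5.87 on 0.2 nM replicate 3 and -5.76 and -5.81 on 0.2 nM replicates 1 and 2, against -5.10, -4.93 and -5.02 in controls. It was lower by 1.80-fold within slide 1 (log2 difference -0.85, SE 0.11, limma adjusted p = 0.0403), and by -0.76 (SE 0.09, limma adjusted p = 0.00203) on the log2 scale for the slide 2 arrays. The group means were -5.81 ± 0.05 at 0.2 nM and -5.02 ± 0.09 in controls (log2, SD, n = 3 each), and the 3 against 3 test, whose spread is shared with the other groups, did not pass (log2 difference -0.79, SE 0.28, limma adjusted p = 0.308). Its call on slide 1 was lost in 13 of 16 alternatives, with limma adjusted p from 0.0200 to 0.909, and its direction was the same in all 16. With normexp background correction the log2 difference was -0.25. At 2 nM it was at -6.23 and -6.14 on slide 2 and at -4.90 on slide 3, and at 20 nM it was at -5.12 to -4.98. The lowest call, CUST_7113_PI414333748, had -3.10 on 0.2 nM replicate 3, against control levels of -1.53, -1.47 and -1.70 (log2 difference -1.53, SE 0.14, limma adjusted p = 0.0123), and -1.76 and -1.95 on the other exposed arrays.

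**Figure D3:**
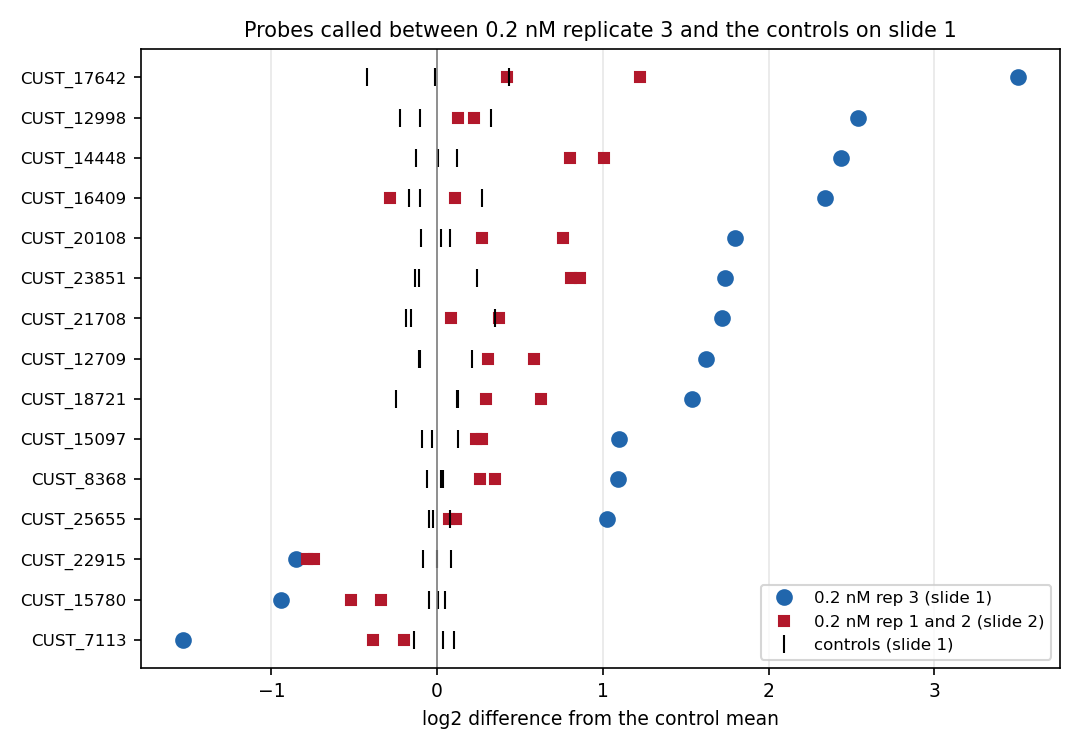
The 15 probes called on slide 1, each array shown by its log2 difference from the control mean, with the common suffix of the probe names left out. In the 12 upper rows 0.2 nM replicate 3 stands above the controls, by 1.03 to 2.54 for 11 of them. For CUST_17642, whose control values are below detection, it stands above them by at least 2.72. In these rows the mean of 0.2 nM replicates 1 and 2 is nearer to the control mean, at -0.09 to 0.90 from it. For CUST_22915 all 3 exposed arrays coincide.

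The position of the called spots was examined after these values were seen. A spot was counted as raised when it was at least 4-fold above the same spot on all 11 other arrays, and a spot lay beside it when within 4 rows and 2 columns. Each of the 6 arrays had such spots, up to 231 of them, of which 64.4% to 75.6% lay beside another raised spot. On 0.2 nM replicate 3, 97.5% of its 160 raised spots were in the middle rows of the array (the central 2 of 4 equal bands of rows), as were 71.4% to 95.3% on the other 5 arrays. All 15 called probes were printed once, although 18.6% of the tested probes were printed 5 times. Of the 12 higher calls, 9 (75%) lay beside a raised spot on that array, against 1035 of all 9688 tested probes printed once and 0 of the 3 lower calls. With spots beside a raised spot left out on every array, 2 of 10840 probes passed on slide 1, both higher. That setting left the 9 higher calls beside a raised spot without a value on 0.2 nM replicate 3, so they could not pass. The part of the raised spots in these calls was not tested. CUST_12998_PI414333748 and CUST_14448_PI414333748 lay beside such spots on 0.2 nM replicate 3, and the spot of the first was itself raised. CUST_22915_PI414333748 and CUST_7113_PI414333748 lay beside none on that array. With spots beside a raised spot left out, the latter 2 probes had log2 differences of -0.84 and -1.52 on slide 1. Their calls were thus lost with little change in the difference.

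**Figure D4:**
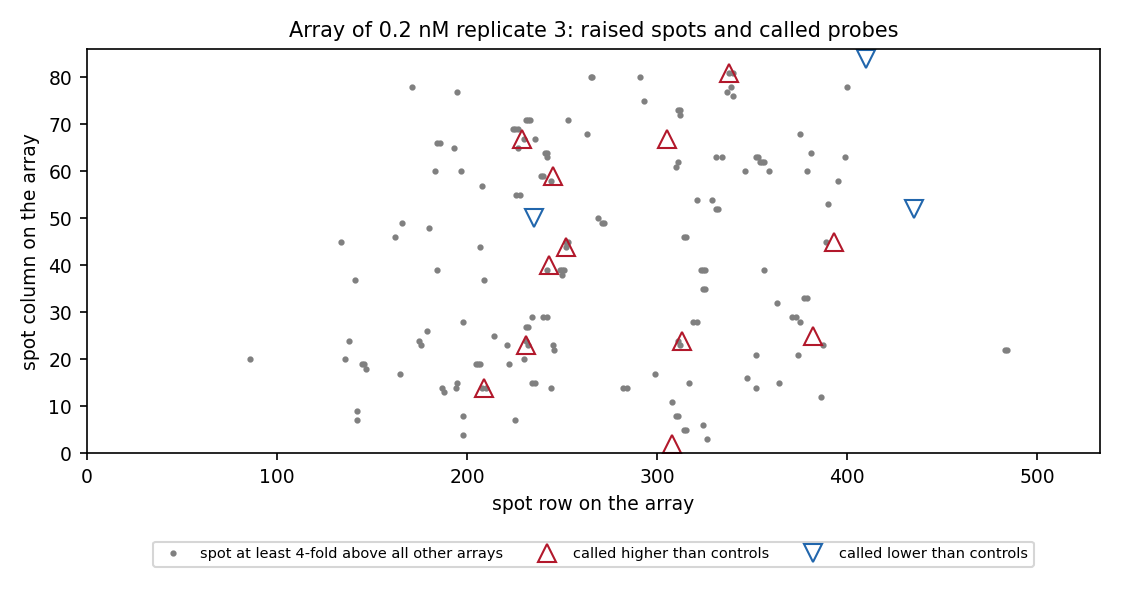
Row and column of the 160 spots on the array of 0.2 nM replicate 3 that were at least 4-fold above the same spot on all other arrays (grey), with the probes called higher (upward triangles) and lower (downward triangles) than the controls. The grey spots lie in clumps in the middle rows, and 9 of the 12 upward triangles lie within 4 rows and 2 columns of one.

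The 2 exposed arrays on slide 2 differed from the controls at 1882 of 11910 probes (15.8%), 700 higher (5.88%) and 1182 lower (9.92%). Treatment and slide changed together here and cannot be told apart. The median absolute log2 difference of the called probes was 0.62, and 297 differed by at least 2-fold. Scaling to the median of all probes gave 302 higher and 1402 lower, array weights 2065 higher and 1856 lower, and only the 2 groups in the fit 1641 higher and 1584 lower. It was 922 without a filter on dim probes, and 877 and 918 without 0.2 nM replicates 1 and 2. Without control replicates 1, 2 and 3 it was 1174, 1035 and 1069.

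The median difference on slide 2 went down with the brightness of the probe, and that on slide 1 was alike at all levels. For 0.2 nM replicates 1 and 2 against controls the median log2 difference was 0.17 in the dimmest quintile of the tested probes, 0.09 in the middle quintile and 0.01 in the brightest. For 0.2 nM replicate 3 all 5 quintile medians were -0.01. The 325 probes with a mean level of at least 5 had a median of -0.23 for the slide 2 arrays, with 267 below the controls, 97 called lower and 0 called higher, and of -0.02 for 0.2 nM replicate 3.

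Among probes for RNAs foreign to the larvae, only the brightest pair were clearly lower on the slide 2 arrays after scaling. The array carries 10 E1A spike-in probes, which match RNAs that the 1-colour labelling procedure adds to each sample in fixed amounts, and 8 of them were well above background on all 12 arrays. Before scaling, 6 of the 8 were 0.54 to 0.69 higher (log2) on 0.2 nM replicates 1 and 2 than on the controls, and the brightest pair differed by 0.21 and 0.01. The 2 nM arrays on the same slide were -0.38 to -0.10 from the controls. After scaling, the brightest pair were at -0.35 and -0.55 relative to controls on the slide 2 arrays, and at -0.08 and -0.11 on 0.2 nM replicate 3. The remaining 6 lay between -0.02 and 0.13 on the slide 2 arrays. One of these, E1A_r60_n11, had a control level of 5.87, in the range of the bright larval probes, and was at -0.02. The part of this signal dependence in the calls on slide 2 was not tested.

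**Figure D5:**
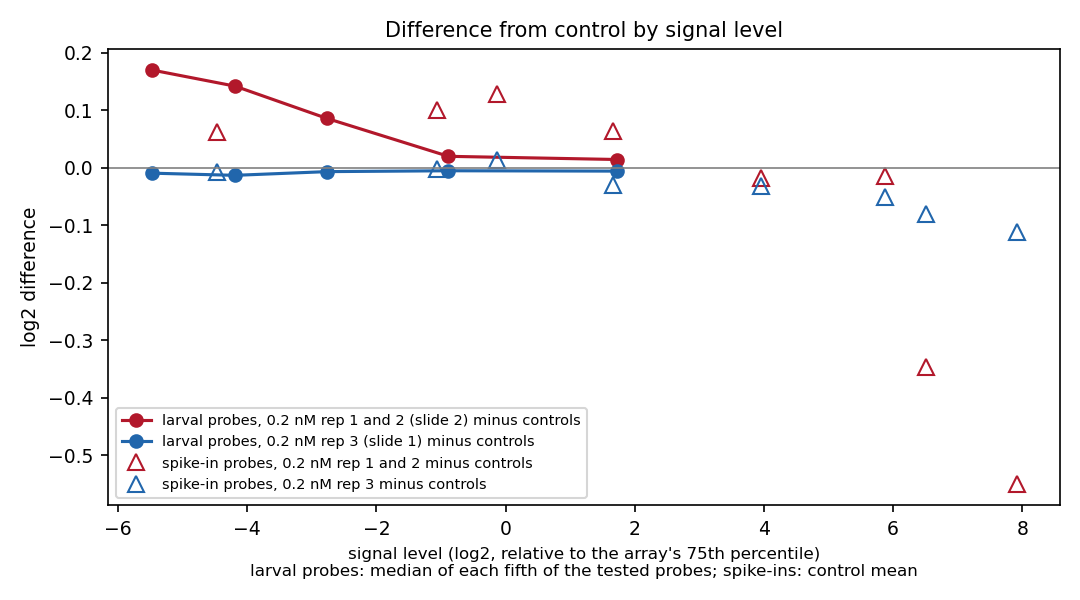
Log2 difference from the controls against signal level for the tested larval probes (circles, median of each quintile) and the 8 spike-in probes (triangles), for 0.2 nM replicates 1 and 2 on slide 2 (red) and 0.2 nM replicate 3 on slide 1 (blue). The blue quintile medians lie at -0.01, the red ones go down with level, with 0.17 at the dimmest quintile and 0.01 at the brightest, and the 2 brightest spike-ins lie at -0.35 and -0.55 in red.

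Whether the slide 2 and slide 1 arrays differed from the controls to the same extent was tested directly, by setting 0.2 nM replicates 1 and 2 against 0.2 nM replicate 3, since the controls cancel. At 273 of 11910 probes (2.29%) they differed, 36 higher (0.302%) and 237 lower (1.99%) on slide 2. In this contrast the treatment is the same, while the slide and the pools both change. Scaling to the 75th percentile of all probes gave 472 and median scaling 439, while it was 29 without control replicate 2, 45 and 82 without 0.2 nM replicates 2 and 1, and 115 and 114 without control replicates 1 and 3. With spots beside a raised spot left out it was 130.

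The largest positive differences in that contrast, among probes past the threshold with signal on all its arrays, were found at probes whose design numbers lie close together, and the files pair neither with a gene. Probe CUST_19447_PI414333748 had -4.69 and -4.53 on 0.2 nM replicates 1 and 2, against -6.07 on 0.2 nM replicate 3 (log2 difference 1.46, SE 0.24, limma adjusted p = 0.0258), with -5.27, -5.83 and -5.89 in controls. Probe CUST_19445_PI414333748 had -4.86 and -4.88 on 0.2 nM replicates 1 and 2, against -6.13 on 0.2 nM replicate 3 (log2 difference 1.27, SE 0.17, limma adjusted p = 0.0217), with -6.12, -6.33 and -6.53 in controls. On the exposed array that shared the controls' slide the first was below the controls and the second within their range. With normexp background correction the differences were 0.42 and 0.37. On the arrays of slides 2 and 3 with 2 and 20 nM, the first lay between -5.64 and -4.72 and the second between -5.12 and -4.66.

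The largest negative differences under the same conditions came with high values of a single array. Probe CUST_1592_PI414333748 had -6.18 and -5.80 on 0.2 nM replicates 1 and 2, against -3.06 on 0.2 nM replicate 3 (log2 difference -2.93, SE 0.60, limma adjusted p = 0.0484), with -5.50, -6.82 and -6.08 in controls. Probe CUST_17951_PI414333748 had -5.80 and -6.05, against -3.32 (log2 difference -2.60, SE 0.49, limma adjusted p = 0.0407), with -5.37, -5.29 and -6.08 in controls. With normexp background correction the differences were -1.28 and -1.10. On both probes 0.2 nM replicate 3 stood apart from the other exposed arrays and from the controls. On that array the spot of the second lay beside a raised spot. The spot of the first did not, but it was itself raised by the same definition, at -3.06 against at most -5.47 on any other array. Neither probe was called against the controls on slide 1. Each was well above background on 2 of the 3 controls.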

How the data were processed

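Total RNA was labelled with Cy3 and read on custom arrays with a single dye. The authors deposited spot intensities on a linear scale, per the file headers made with Agilent Feature Extraction 10.7.3.1 (10.7 per the submitters' processing notes), which subtracts background and spatial trends within an array. They also deposited a table of log2 values, whose columns had medians of 4.34 and correlated with the log2 scanner values of their own array at r of at least 0.999 across probes. It was used as an alternative, and how it was normalized is not stated in the labels or headers. No spot of the custom probes was saturated (0 spots). The spike-in spots were not checked for saturation.

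Spots marked as non-uniform or population outliers were left out (507 to 729 per array), log2 intensities were averaged per probe, and each array's 75th percentile, taken over 10429 probes detected on every one of the 12 arrays, was subtracted. A probe was well above background when a share over 0.5 of its remaining spots carried that mark. Among the tested probes 24 values were missing, and 9 probes lacked a value on the 6 arrays, none of them named here. Tests used limma 3.58.1 (R 4.3.3) over all 12 arrays with Benjamini-Hochberg adjustment at 0.05, by group means and by the means of each combination of group and slide. The number of arrays limits the precision. The fits were tested on simulated data.

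Probes are named by rule: for 3 against 3, within slide 1 and between slides at 0.2 nM, the largest differences past the threshold with signal on all arrays of the contrast, at most 2 per direction, filled by the smallest unadjusted p, plus the largest detection bound per direction. The comparison, rule and tests were chosen with earlier results of these data known. Alternatives were other scalings, background corrections, filters, array weights, blocks and left-out arrays. The labels do not pair samples by replicate number, and deviations from group means correlated at 0.08, -0.0026 and 0.03 for replicates 1 to 3. The 0.2 nM arrays lay on slides 1 and 2 and the controls on slide 1 alone. These correlations therefore cannot settle whether the samples were paired.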

Additional observations from a re-analysis of the deposited data

Results flagged for a closer look

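Spike-in probes lie outside the larval measurement and carry no treatment. After scaling, 3 of the 8 detected ones had all 3 arrays at 0.2 nM on the same side of all 3 controls. The same held for 3506 of the 11901 tested larval probes with no value missing on these arrays (29.5%). Whether the share among the 8 spike-ins differs from that of the larval probes was not tested. E1A_r60_a20 was higher by 0.0901 on the log2 scale, E1A_r60_n9 differed by -0.26, and E1A_r60_1, the brightest, by -0.40. The first of these differences was 0.13 on slide 2 and 0.01 on slide 1.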

How the results depend on the processing

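Of the recomputed counts and spreads, 64 stayed near the reported value and 41 moved, and the 14 named probes kept their direction under each alternative that gave them a value (15 to 21 per probe), with 48 calls lost and 10 gained. For 3 against 3 the count, 0 as reported, was 1 with the percentile of all probes, 3 with median scaling, 2 with either normexp, 1 without a filter on dim probes, 1 with spots beside a raised spot left out, 3833 with array weights, 2 with only the 2 groups in the fit, 15 with slide as a fixed block, 1729 unadjusted, and 0 to 301 with 1 array left out. It stayed at 0 with the replicate block and with slide as a random effect (correlation 0.31). The block was fitted although the numbers share no pairing in the labels, and it changed no call. Within slide 1 the 15 became 145 without a filter, 2 with spots beside a raised spot left out, 0 with only the 2 groups, 503 unadjusted and 5 to 14 with 1 array left out. For slide 2 against controls the 1882 became 922 without a filter, 3921 with array weights, 3225 with only the 2 groups and 877 to 1882 with 1 array left out. Between slides at 0.2 nM the 273 became 472 with the percentile of all probes, 439 with median scaling, 130 with spots beside a raised spot left out, 643 with array weights, 669 with only the 2 groups and 29 to 115 with 1 array left out. The median SD at 0.2 nM was 0.0951 with normexp and 0.106 with capped local backgrounds, and in controls 0.0605, 0.0673, and 0.264 without a filter. The cause of these shifts was not tested, except that leaving out spots removes probes and that fewer arrays give fewer degrees of freedom. The planned normexp on mean spot signal was not run, since the files hold median signals, so both normexp settings and the setting on raised spots were added after seeing the data. Without 0.2 nM replicate 3 no value on slide 1 could be given. Normexp shrank the differences of 10 of the 14 named probes by over 1.5 times, the dim ones. Dim probes near background had the largest differences and the least certain ones.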
